A study of Arabidopsis thaliana with 4 samples.

Results

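Floral organs are specified by a small set of transcription factors, and 8 of their genes were followed in Arabidopsis inflorescences with and without NDX. They were chosen by gene identifier: the A-function genes AP1 and AP2, the B-function genes AP3 and PI, the C-function gene AG, the E-function gene SEP3, and the meristem regulators LFY and UFO. Of these 8 genes, 6 (AP1, AP3, PI, AG, SEP3 and LFY) had counts in all 4 flower libraries, out of 13311 genes listed in any of the 3 deposited gene tables. AP2 and UFO are in none of these tables, which list only genes past the authors' threshold in a comparison, so their levels were not analysed here. Libraries were made from inflorescences of 5-week-old plants. One group was wild type of the accession Col-0, and the other was ndx1-4, a line in the Col-0 background that carries a single T-DNA insertion allele of NDX, a gene for a homeodomain protein. Each genotype had 2 libraries, each from RNA pooled over inflorescences of different plants, so the spread between libraries is a spread between pools.

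LFY is a plant-specific transcription factor that turns a new meristem into a flower and switches on AP1, and together with the F-box protein UFO it activates AP3. AP1 acts in the young floral meristem and later in sepals and petals, AP3 and PI act as obligate partners in petals and stamens, AG acts in stamens and carpels and ends the floral meristem, and SEP3 is the partner that brings these proteins into complexes. AP1, AP3, PI, AG and SEP3 all belong to the MADS family, whose DNA-binding domain is encoded by the MADS box. These genes are also textbook targets of Polycomb repression outside the flower, and NDX has been described as a binding partner of Polycomb RING1 proteins.

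The MADS boxes of the 5 MADS genes are shown because this is the stretch in which the genes resemble each other most, and so the place where short reads could be assigned to the wrong gene. Each sequence is the 180 bases of the box, 60 codons, read from the reference assembly TAIR10.1 along the coding strand, and capitals mark the 78 bases that are identical in all 5 boxes. The AP1 box lies at chr1:25985923-25986102 on the minus strand, the SEP3 box at chr1:8595683-8595862 on the minus strand, the AG box at chr4:10383965-10384144 on the plus strand, the AP3 box at chr3:20120908-20121087 on the minus strand, and the PI box at chr5:6829203-6829382 on the plus strand. Each box lies within 1 exon, the second of the AG transcript and the first of the others.
AP1 MADS box: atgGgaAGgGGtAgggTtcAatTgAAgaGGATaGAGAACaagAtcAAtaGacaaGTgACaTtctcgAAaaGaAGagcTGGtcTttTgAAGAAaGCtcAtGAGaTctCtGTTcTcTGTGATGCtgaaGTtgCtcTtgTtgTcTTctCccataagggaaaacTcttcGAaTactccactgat
SEP3 MADS box: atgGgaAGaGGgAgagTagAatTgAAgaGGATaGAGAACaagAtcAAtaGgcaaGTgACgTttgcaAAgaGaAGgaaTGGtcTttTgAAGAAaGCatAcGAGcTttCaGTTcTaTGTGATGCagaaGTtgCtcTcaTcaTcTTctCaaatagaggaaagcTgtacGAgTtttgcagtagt
AG MADS box: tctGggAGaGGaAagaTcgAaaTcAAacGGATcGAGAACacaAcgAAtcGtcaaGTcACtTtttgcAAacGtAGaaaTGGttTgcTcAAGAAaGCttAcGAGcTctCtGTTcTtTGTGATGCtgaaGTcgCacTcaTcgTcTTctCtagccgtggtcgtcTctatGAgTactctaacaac
AP3 MADS box: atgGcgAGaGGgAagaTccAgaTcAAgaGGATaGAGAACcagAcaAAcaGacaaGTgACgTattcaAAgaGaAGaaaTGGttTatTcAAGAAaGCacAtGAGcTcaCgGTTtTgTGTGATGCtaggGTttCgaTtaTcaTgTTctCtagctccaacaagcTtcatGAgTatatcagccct
PI MADS box: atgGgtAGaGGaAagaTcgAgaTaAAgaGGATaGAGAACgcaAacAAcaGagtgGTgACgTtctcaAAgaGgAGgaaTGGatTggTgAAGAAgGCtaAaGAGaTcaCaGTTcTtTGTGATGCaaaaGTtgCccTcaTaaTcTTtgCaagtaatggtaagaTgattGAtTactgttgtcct

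AP1 and SEP3 were the most similar pair, with 77.8% of the bases of the box identical and an unbroken identical run of 31 bases. The other 9 pairs shared 65.0% to 70.6% of their bases, with no identical run above 15 bases. The partners AP3 and PI shared 67.2%. All transcripts of the reference annotation, 60122 from 38074 genes, were then searched for windows shared with the 8 genes on either strand. No window of 75 bases, the length of the reads, was shared by any of the 8 genes with another gene. At 31 bases, the default word of the Salmon index, 26 of the 1741 windows of AP1 (1.49%) were shared, all 26 of them with CAL. Of the 1299 windows of SEP3, 6 were shared (0.462%), 4 of them with FUL, and the other 6 genes shared none. None of the 8 genes overlaps another annotated gene, so antisense reads of a neighbour do not enter their counts by position.

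The 8 genes are protein-coding genes spread over 4 chromosomes of TAIR10. AP1 (AT1G69120) lies on chromosome 1 between 25982294 and 25986349, and SEP3 (AT1G24260) on the same chromosome between 8593536 and 8596123. UFO (AT1G30950) also lies on chromosome 1, between 11035992 and 11037508. AP3 (AT3G54340) lies on chromosome 3 between 20119140 and 20121314. AG (AT4G18960) lies on chromosome 4 between 10382856 and 10388539, and AP2 (AT4G36920) between 17400610 and 17403469. PI (AT5G20240) lies on chromosome 5 between 6828904 and 6831515, and LFY (AT5G61850) between 24844248 and 24846989.

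The listed genes held 10726926 to 13814929 estimated counts per library, which is a part of each library. NDX itself (AT4G03090) was checked first, with counts of 430 and 525 for Col-0 and of 73 and 108 for ndx1-4, so its remaining level was 17.1% and the libraries matched their labels. Counts were brought to a common depth by dividing each library by its scaling relative to Col-0 replicate 1, and are called scaled counts. The genotype comparison used the quasi-likelihood test of edgeR over 7981 genes. These had counts in all 4 libraries through both tissue tables and a mean of at least 10 counts. Adjustment was by Benjamini-Hochberg over all of them. The tissue tables, separate for Col-0 and ndx1-4, list genes past the authors' threshold between flowers and seedlings. The genotype table lists genes past it between ndx1-4 and Col-0 flowers. All genes tested were thus listed as different between flowers and seedlings in both genotypes, and are not the whole transcriptome. A gene was called at an adjusted p below 0.01.

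None of the 6 measured floral regulators was called between ndx1-4 and Col-0 flowers, beside 0.0877% of all genes tested. DESeq2 also called none of the 6, beside 2.49% of all genes. None of the 6 is in the genotype table, the authors' own DESeq2 comparison of these libraries, so this result is not a separate test. At an unadjusted p below 0.05 edgeR had 2 of the 6, AP1 and PI, each higher in ndx1-4, beside 19.3% of all genes in either direction and 10.6% in that direction. The 95% intervals of the 6 fold changes all lay between 0.678-fold and 1.82-fold. The median absolute log2 fold change was 0.19 over the 6 genes and 0.19 over all genes tested. In inflorescence RNA, fewer cells of a type and less RNA per cell cannot be told apart.

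AP1 marks the floral meristem and the outer organs, and had the largest difference of the 6. Its counts were 1045 and 1291 for Col-0 replicates 1 and 2, and 1686 and 1749 for ndx1-4 replicates 1 and 2. As scaled counts these were 1045 and 1074 in Col-0 against 1508 and 1335 in ndx1-4. The ndx1-4 libraries were above the Col-0 libraries and the groups did not overlap. The log2 fold change was 0.42 ± 0.09 (SE), a fold change of 1.34 with a 95% interval of 1.14 to 1.58, at an edgeR adjusted p of 0.126. A smaller p was held by 4.25% of all genes tested.

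**Figure D1:**
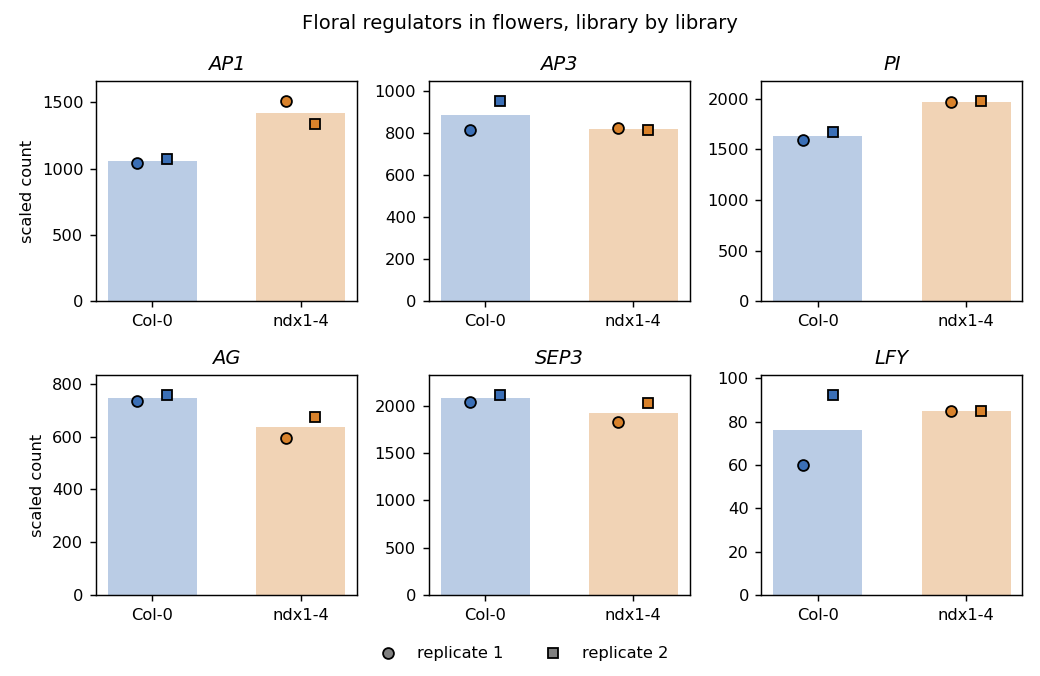
Scaled counts (y axis, counts divided by the scaling of each library) of the 6 measured genes in Col-0 and ndx1-4 flowers. Points are libraries, with a circle for replicate 1 and a square for replicate 2, and bars are group means; AP1, at 1045 and 1074 in Col-0 against 1508 and 1335 in ndx1-4, shows the widest gap, and LFY has the largest ratio between Col-0 replicates, 1.54-fold, at 60 and 92.3.

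The B-function partners AP3 and PI did not share a direction. For PI the counts were 1593 and 2014 (Col-0) and 2193 and 2587 (ndx1-4), or 1593 and 1675 against 1962 and 1975 scaled counts. These groups did not overlap. PI was 1.21-fold higher in the fit (log2 0.27 ± 0.07 SE, edgeR adjusted p of 0.171). For AP3 the counts were 816 and 1144 (Col-0) and 921 and 1065 (ndx1-4), or 816 and 951 against 824 and 813 scaled counts. Here the ndx1-4 libraries lay inside or just below the Col-0 range, and the fitted log2 difference was -0.11 ± 0.10 (SE), with a 95% interval of 0.774-fold to 1.11-fold and an edgeR adjusted p of 0.567.

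AG, the gene of stamen and carpel identity, gave counts of 736 and 912 (Col-0) and of 667 and 882 (ndx1-4). Its scaled counts were 736 and 758 in Col-0 against 597 and 673 in ndx1-4, so the ndx1-4 libraries were the lower ones and the groups did not overlap. The log2 fold change was -0.23 ± 0.09 (SE), with a 95% interval of 0.719-fold to 1.01-fold and an edgeR adjusted p of 0.269. SEP3, the shared partner, gave counts of 2041 and 2544 (Col-0) and of 2039 and 2654 (ndx1-4), or 2041 and 2115 against 1824 and 2026 scaled counts. The groups did not overlap but nearly met, at a fitted log2 difference of -0.11 ± 0.09 (SE), a 95% interval of 0.796-fold to 1.08-fold and an edgeR adjusted p of 0.504. In all, 4 of the 6 genes did not overlap between genotypes, AP1 and PI on the higher and AG and SEP3 on the lower side, beside 53.5% of all genes tested.

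LFY, the regulator of floral meristem identity that was measured where UFO was not, had the fewest counts of the 6 genes. Its counts were 60 and 111 (Col-0) and 95 and 111 (ndx1-4), or 60 and 92.3 against 85.0 and 84.8 scaled counts. The Col-0 libraries lay on either side of the ndx1-4 libraries. The log2 fold change was 0.15 ± 0.28 (SE), and its 95% interval of 0.678-fold to 1.82-fold is the widest of the 6, at an edgeR adjusted p of 0.789. Without Col-0 replicate 1 the log2 fold change of LFY was -0.12, and without Col-0 replicate 2 it was 0.50, so its direction rests on which Col-0 library is used. Without Col-0 replicate 2 that of AP3 was 0.0043.

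Replicates of the 5 MADS genes were close. The absolute log2 difference between replicates of a genotype was at most 0.22 (AP3 in Col-0) among them. Over the 6346 genes averaging 100 counts or more, the median of this difference was 0.12 in Col-0 and 0.12 in ndx1-4. For LFY it was 0.62 in Col-0 and 0.0038 in ndx1-4.

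Levels were compared between genes as FPKM, which accounts for transcript length. The FPKM of the Col-0 libraries and of the ndx1-4 libraries come from separate tables, whose scales relative to the genotype table were 0.913 to 0.925 in all 4 libraries. In Col-0 flowers SEP3 had the highest level at 135 ± 3.69 FPKM (SD, n = 2), followed by PI at 109.9 ± 4.43 FPKM, AP1 at 64.1 ± 1.42 FPKM, AP3 at 57.4 ± 6.38 FPKM and AG at 39.8 ± 1.14 FPKM. LFY followed at 3.45 ± 0.911 FPKM, 11.6-fold below AG. No neighbours in this FPKM order overlapped between libraries. The closest pair in their means were AP1 (63.1 and 65.1 FPKM) and AP3 (52.9 and 61.9 FPKM). Per kilobase of annotated exons AP1 was instead below AP3 in Col-0, at 599.5 and 615.9 against 672.2 and 783.6 scaled counts. The order of AP1 and AP3 in Col-0 thus depends on the transcript length used. So does the size of the gap between AG and LFY. Per kilobase of annotated exons it was smaller in Col-0, at 354.5 and 365.3 against 43.5 and 67.0 scaled counts. The 5 MADS genes stood above 76.4% or more of the genes in the Col-0 table, whose median was 14.1 FPKM, and LFY above 24.7%.

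In ndx1-4 flowers the FPKM order was the same from AP1 downwards, with PI and SEP3 at the top. PI had 132 ± 2.21 FPKM (SD, n = 2) and SEP3 had 125 ± 7.22 FPKM, and these overlapped between libraries, so their order in ndx1-4 is not resolved. AP1 had 86.2 ± 8.67 FPKM, AP3 had 52.9 ± 1.44 FPKM, AG had 33.8 ± 2.14 FPKM and LFY had 4.003 ± 0.0552 FPKM. The gap between AP1 and AP3 was 1.63-fold here in FPKM. Per kilobase of annotated exons AP1 was also above AP3 in ndx1-4, at 865 and 766 against 679 and 670 scaled counts. The gap between AG and LFY was 8.43-fold in FPKM. Per kilobase of annotated exons it was again smaller, at 287 and 324 against 61.7 and 61.5 scaled counts.

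Ratios between genes within a library do not depend on how libraries are scaled. AP1 over AG, the A against the C function, was 1.62 and 1.60 in the Col-0 libraries and 2.86 and 2.27 in the ndx1-4 libraries, as ratios of FPKM. Both ndx1-4 libraries had the higher ratio, by 1.58-fold on average. AP3 over PI, the balance of the B partners, was 0.495 and 0.548 (Col-0) against 0.405 and 0.399 (ndx1-4), which is 0.771-fold and again without overlap. SEP3 over AG was 3.398 and 3.392 (Col-0) against 3.72 and 3.69 (ndx1-4), a 1.09-fold difference. With 2 libraries against 2, the smallest p of a two-sided exact permutation test is 0.333, which each of the 3 ratios gave, so none can pass a threshold of 0.05. The differences are therefore given as descriptions. AP1 alone was higher and AG alone lower without overlap, so their ratio had to separate and adds nothing to these 2 results. The share of all gene pairs whose ratio does not overlap was not computed. Of single genes tested, 53.5% did not overlap.

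**Figure D2:**
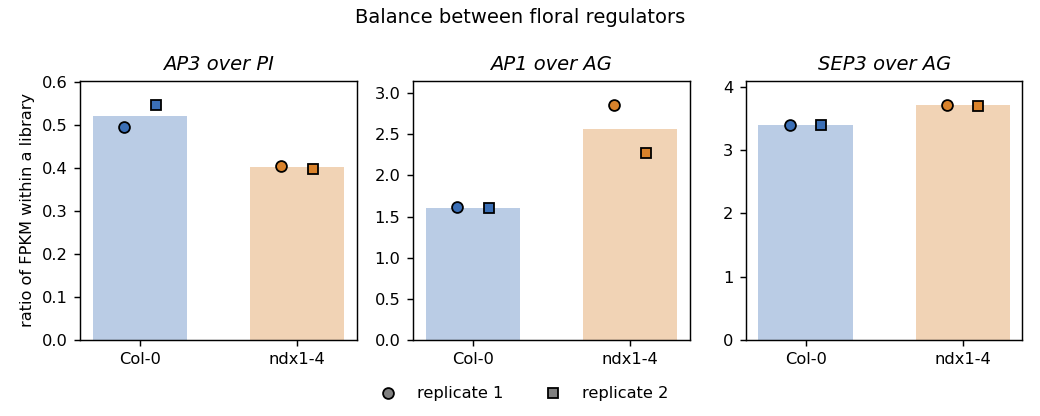
Ratio of FPKM of 2 genes within each library (y axis) for AP3 over PI, AP1 over AG and SEP3 over AG in Col-0 and ndx1-4 flowers. Points are libraries, with a circle for replicate 1 and a square for replicate 2, and bars are group means. The genotypes do not overlap in any of the 3 panels, and the share of other gene pairs without overlap was not computed. The ndx1-4 libraries of AP1 over AG are the farthest apart, at 2.86 and 2.27.

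The surrounding network was read from a list of 45 other floral regulators, of which 28 had flower counts of both genotypes and 26 were tested. None of the 26 was called by edgeR, beside 0.0877% of all genes tested. DESeq2 called 1 of the 26, STK, beside 2.49% of all genes tested. At an unadjusted p below 0.05 edgeR had 5 higher and 3 lower in ndx1-4, beside 10.6% and 8.7% of all genes tested. The median log2 fold change of the 26 was 0.04, beside 0.01 over all genes tested. Of the genes named here, STK, SUP, AGL24, TOE1 and SPT were given by rule as the largest change of their group, and the others were named after their values were seen.

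The list holds 9 further MADS genes close to the organ identity genes in role, apart from AGL24 and SVP, which stand with the meristem genes. Of these 9, 7 had a fold change below 1, SEP1 and SEP2 only just, beside 3830 of all 7981 genes tested. STK, which specifies ovules, had the largest difference of the list, at counts of 730 and 822 for Col-0 against 328 and 582 for ndx1-4. The log2 fold change of STK was -0.93 ± 0.21 (SE) at an edgeR adjusted p of 0.132 and a DESeq2 adjusted p of 0.00709. SHP1, which acts in ovules and in the margins of fruit valves, gave 1185 and 1306 against 714 and 1216 counts (log2 fold change -0.53 ± 0.19 SE). The values of its close relative SHP2 were 551 and 611 against 405 and 667 counts (log2 fold change -0.28 ± 0.18 SE). Without ndx1-4 replicate 1 the log2 fold changes of STK, SHP1 and SHP2 were -0.67, -0.29 and -0.06. Without ndx1-4 replicate 2 they were -1.27, -0.83 and -0.55. FUL, a relative of AP1 that acts in fruit valves and meristems, gave 1575 and 1725 against 1335 and 1655 counts (log2 fold change -0.29 ± 0.09 SE). CAL, the closest relative of AP1, gave 150 and 161 against 118 and 134 counts (log2 fold change -0.45 ± 0.18 SE), on the other side of 0 from AP1. Of the relatives of SEP3, SEP1 and SEP2 had log2 fold changes of -0.04 ± 0.13 (SE) and -0.02 ± 0.11 (SE), and SEP4 of 0.25 ± 0.09 (SE).

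Of the 10 meristem genes 6 were tested, and 3 of the 6 had a fold change above 1 and 3 below. AGL24 and SVP, MADS genes that work with AP1 in young flower buds to hold back the organ identity genes, gave 195 and 187 against 330 and 351 counts, and 355 and 347 against 524 and 525 counts. Their log2 fold changes were 0.69 ± 0.17 (SE) and 0.43 ± 0.15 (SE), at edgeR adjusted p of 0.160 and 0.233. STM, which maintains meristem cells, gave 989 and 1051 against 1504 and 1422 counts (log2 fold change 0.38 ± 0.13 SE). These are the 3 of the 6 above 1, and none of them overlapped between genotypes. Below 1 were TFL1, a repressor of floral identity in the shoot meristem, at a log2 fold change of -0.22 ± 0.26 (SE) and also without overlap, CLV1, a receptor kinase that limits the stem cells, at -0.07 ± 0.09 (SE), and WUS at -0.32 ± 0.42 (SE). Without overlap were thus 3 higher and 1 lower of the 6, beside 27.9% and 25.6% of all genes tested. WUS, which activates AG together with LFY, gave counts of 55 and 149 (Col-0) and of 76 and 100 (ndx1-4), so its Col-0 libraries spanned the ndx1-4 libraries.

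**Figure D3:**
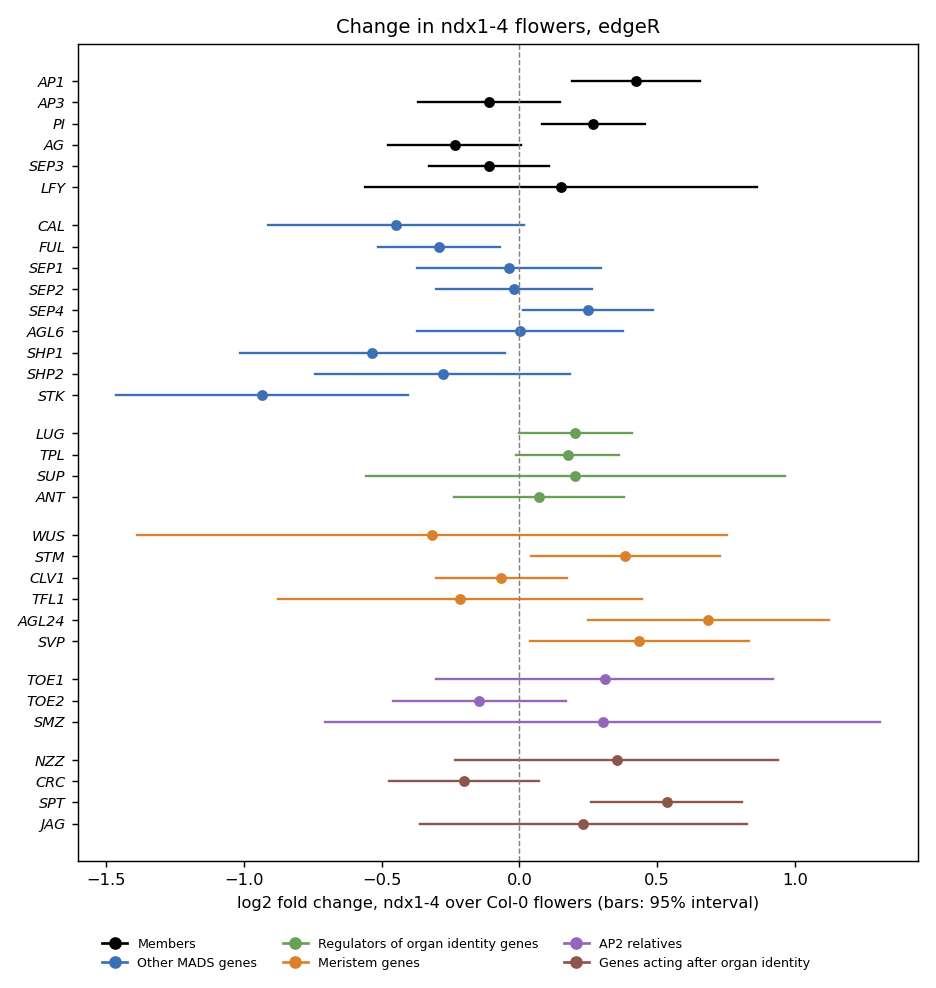
Log2 fold change of ndx1-4 over Col-0 flowers (x axis) with 95% intervals from edgeR for the 6 measured genes and 26 other floral regulators in 5 groups. Points are estimates and bars are intervals. Of the 6 measured genes, AP1 and PI have intervals above 0. Of the 26 others, SEP4, STM, AGL24, SVP and SPT have intervals above 0, and FUL, SHP1 and STK below 0. Of all genes tested, 10.6% were higher and 8.7% lower at an unadjusted edgeR p below 0.05. The interval of STK lies lowest, around -0.93, and edgeR called none of the genes after adjustment.

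Among regulators of the organ identity genes only 4 of 15 were tested. LUG and TPL encode corepressors that restrict AG, and had log2 fold changes of 0.20 ± 0.08 (SE) and 0.18 ± 0.07 (SE). SUP, which keeps AP3 and PI out of the centre of the flower, gave counts of 58 and 76 (Col-0) and of 61 and 111 (ndx1-4). Its scaled counts overlapped between genotypes, and its log2 fold change was 0.20 ± 0.30 (SE) at an edgeR adjusted p of 0.731. ULT1, an activator of AG, was outside the test because its Col-0 counts came only through the genotype table, which lists genes chosen on these same libraries. Its counts were 427 and 485 (Col-0) and 852 and 1048 (ndx1-4). With the genes of that table added to the fit ULT1 gave a log2 difference of 0.91 ± 0.09 (SE). This value is no separate test of ULT1, which was listed because of its difference in these libraries.

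Among genes acting after organ identity, SPT, which forms the carpel margin, gave 398 and 520 against 632 and 835 counts. The log2 fold change of SPT was 0.53 ± 0.11 (SE) at an edgeR adjusted p of 0.124. The AG targets NZZ, needed for spore-forming cells, and CRC, which acts in carpels and nectaries, had log2 fold changes of 0.35 ± 0.23 (SE) and -0.20 ± 0.11 (SE). Of the relatives of AP2, TOE1 had the largest change, at 40 and 51 against 58 and 66 counts. Its log2 fold change was 0.31 ± 0.24 (SE) at an edgeR adjusted p of 0.503.

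Inflorescences hold buds of many ages, and markers of pollen and tapetum were followed beside these genes. All 9 pollen markers had a fold change above 1, beside 4151 of all 7981 genes tested. Of the 9, 4 did not overlap between genotypes, beside 27.9% of all genes tested in this direction. Their summed scaled counts were 15504 to 19522 in Col-0 and 20728 to 30247 in ndx1-4, 1.46-fold on average. VGD1 and VGDH1 made up most of this sum, at 9756 and 4875 of 19522 in Col-0 replicate 1. VGD1 did not overlap between genotypes and VGDH1 did. LRX8, a cell wall protein of pollen tubes, gave 1668 and 1331 against 3391 and 2645 counts. Of 6 tapetum markers 5 were tested. These summed to 2395 to 2534 scaled counts in Col-0 and 2541 to 2714 in ndx1-4, 1.07-fold on average. MS1 had the largest log2 fold change of the 5, 0.92 ± 0.17 (SE), at 105 and 147 against 234 and 289 counts. The others were at 0.22 (MYB80), 0.15 (AMS), 0.095 (A9) and -0.04 (A6). LRX8 and MS1 were named after their values were seen. No marker was called by edgeR with genotype as the only term. At an unadjusted p below 0.05 edgeR had 3 of the 14 tested, each higher in ndx1-4, beside 10.6% of all genes in that direction. No marker was lower at this p, beside 8.7% of all genes. The part of these cells in the values of AP1, AG and the other floral regulators was not tested.

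The genes whose pattern over the 4 libraries was closest to that of AG and AP1 were found by the Euclidean distance between log2 scaled counts, centred for each gene, over 6345 genes. Closest to AG were IMK2 (AT3G51740), SK13 (AT5G14640) and AT3G11320, at distances of 0.0152 to 0.0158 beside a median of 0.370. IMK2, a receptor-like kinase gene, gave counts of 1580 and 1937 (Col-0) and of 1436 and 1882 (ndx1-4). Closest to AP1 were AT5G61820, PHOT1 (AT3G45780) and TBL10 (AT3G06080), at distances of 0.0277 to 0.0572 beside a median of 0.492. PHOT1, a blue-light receptor gene, gave counts of 1979 and 2450 (Col-0) and of 3102 and 3185 (ndx1-4). With 4 libraries such a distance describes these libraries only.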

How the data were processed

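The mRNA libraries of inflorescences, 2 of Col-0 and 2 of ndx1-4, were grouped by their labels. Per the labels and methods of the study, the authors quantified single-end reads with Salmon against Araport11 genes with a correction for GC bias, described duplicates as filtered, and compared groups with DESeq2. The authors deposited estimated counts, rounded to whole numbers, and FPKM, scaled within each table, for genes past their threshold only. Fold change and p-value columns of the authors were not used, nor were 8 columns of seedling samples of another series, so flowers were not compared with seedlings.

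Counts of a gene were identical between tables (321 of 321 genes in Col-0 and 276 of 276 in ndx1-4) and were joined. Scaling was the median ratio of count to FPKM in the genotype table over genes with at least 50 counts, relative to Col-0 replicate 1. It was 1.20, 1.12 and 1.31 for Col-0 replicate 2, ndx1-4 replicate 1 and ndx1-4 replicate 2. Genes were tested with edgeR 4.0.16 (glmQLFit, glmQLFTest) in R 4.3.3, with genotype as the only term, and standard errors and intervals were taken from its F statistic. DESeq2 1.42.0 was an alternative. Both were tested on simulated data, with changes larger than that of any measured floral regulator. How well they detect smaller changes was not tested. Scripts used Python 3.11.15, pandas 2.3.3, numpy 2.4.6, scipy 1.17.1 and matplotlib 3.10.9.

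Counts of replicates differed by more than sampling noise, at a chi-square of 17.5 (Col-0) and 18.1 (ndx1-4) for each degree of freedom, and each library was counted as a sample of its own. All nuclear genes of the 3 gene tables had the same position in the TAIR10.1 annotation of RefSeq as in the tables, so sequences were read from that assembly. The genes, lists and named-gene rule (all 8 genes, the largest change of each list group, any called gene, and 3 genes nearest in pattern to AG and AP1) were chosen with earlier results of these data known. Transposable elements were not used here.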

Additional observations from a re-analysis of the deposited data

How the results depend on the processing

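No alternative called any of the 6 floral regulators at an adjusted p below 0.01: TMM or total count scaling, DESeq2, no filter on low counts, the genes of the genotype table added, a replicate block, and each library left out. Of all genes tested 7 were called. This count was 199 with DESeq2, 22 with the genotype table genes added, 30 at an adjusted p below 0.05, and 0 whichever library was left out, where 868 to 1499 genes had an unadjusted p below 0.05. Fitted with the replicate number as a block it was 281, while AP1 had a log2 fold change of 0.42 at an edgeR adjusted p of 0.0327. Same-numbered libraries deviated together (r of 0.455 across 7057 genes, which are not replicates), but nothing in the labels pairs them. At an unadjusted p below 0.05, 845 genes were higher and 694 lower in ndx1-4, against 764 and 796 with TMM and 648 and 871 with total count scaling, while AP1, PI, AG, AP3, SEP3 and LFY each had the same direction under these scalings. Over alternatives other than leaving a library out, the adjusted p of AP1 ranged from 0.0327 to 0.135 and its log2 fold change from 0.38 to 0.42.

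With each library left out, the log2 fold change ranged from 0.33 to 0.51 for AP1, 0.23 to 0.31 for PI, -0.32 to -0.15 for AG, -0.19 to -0.04 for SEP3, -0.22 to 0.0043 for AP3 and -0.12 to 0.50 for LFY. Their median, 0.02, ranged from -0.13 to 0.15. SEP1 (-0.22 to 0.12), SEP2 (-0.16 to 0.11), SUP (-0.15 to 0.48), CLV1 (-0.15 to 0.024) and WUS (-0.78 to 0.39) also turned direction. The log2 ratio of AP1 over AG, 0.66 higher in ndx1-4, ranged from 0.50 to 0.83, that of AP3 over PI from -0.45 to -0.30, and that of SEP3 over AG from 0.12 to 0.13. The floral list had 1 called gene with DESeq2, STK, beside 2.49% of all genes tested. The pollen markers LRX8 and LRX9 were called by edgeR with the replicate block (adjusted p of 0.00234 and 0.0045), beside 281 of all genes tested. Reversals came with fewer samples, and their cause was not tested. LFY over UFO was planned and could not be computed. Of the 6 genes LFY had the fewest counts, a mean of 85.5 in Col-0, and the largest standard error. How much of that error comes from depth was not tested.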
